A study of Mus musculus with 2 samples.

Results

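The nuclear genes of oxidative phosphorylation were examined in the open chromatin of MN1, an immortalized mouse cell line of strain B6NCrl. They were chosen by name: every protein-coding gene of GENCODE release M21 off the mitochondrial genome whose symbol begins with Nduf, Uqcr, Cox4 to Cox8 or Atp5, together with Sdha, Sdhb, Sdhc, Sdhd, Cycs and Cyct. This gave 95 genes under 96 gene identifiers, since Atp5o has 2 identifiers, of 21911 protein-coding genes. The rule uses no measured value, but it was set with earlier results of these data known. DNase-seq maps DNase I hypersensitive sites, places where the nuclease reaches the DNA because nucleosomes are displaced. The 2 libraries are biological replicates of 1 group: both came from MN1 cells given 10 nM methyltrienolone, a synthetic androgen. No untreated library was analysed here, so every value is a level in androgen-treated cells and none is a response to the androgen. The labels give no tissue, sex or stage. With 1 group there was no comparison between conditions and no test, and the genes are compared with one another and with all protein-coding genes by counts and medians.

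Oxidative phosphorylation takes place in the inner mitochondrial membrane. Complex I takes electrons from NADH and complex II from succinate, both pass them through ubiquinone to complex III, cytochrome c carries them on, and complex IV gives them to oxygen. The protons pumped on the way drive complex V, the ATP synthase. A few hydrophobic subunits are encoded by the mitochondrial genome and the rest by nuclear genes spread over the chromosomes. Several subunits of complex IV, and cytochrome c, exist as a ubiquitous isoform and a second one made mainly in muscle, testis, lung or under low oxygen. The transcription factors NRF1, GABP (an ETS factor), YY1 and ERRα are known for binding promoters of this pathway.

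On the autosomes and sex chromosomes the authors' lists held 189648 peaks of 150 bp in replicate 1 and 170745 in replicate 2, and 158286 and 142225 hotspots, the wider regions of enriched cutting. Peaks carry a deposited score, a whole number of 1 to 150 without a stated meaning, which serves here mainly to rank the peaks of one list. The read depth behind the lists is unknown. The promoter score of a gene is the score of the highest peak within 1 kb of any of its annotated transcription start sites (TSSs), taken in each replicate separately. The lower percentile is the smaller of its percentiles among all peaks of each replicate. A promoter is called open where peaks of both replicates overlap within 1 kb of a TSS. MN1 is in use as a model of motor neurons. Beside 59.5% of all protein-coding genes, 10 of 10 pan-neuronal marker genes had an open promoter. Markers of motor neurons (4 of 6, with no shared peak at Mnx1 and Slc5a7) and of fibroblasts (3 of 5) were near the share of all genes. Markers of skeletal and heart muscle (4 of 12), testis and sperm (0 of 10), glia (1 of 6), blood (1 of 5) and liver (1 of 4) were below it.

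The promoter sequences come first, because they show how the ubiquitous and tissue-specific isoform genes differ in their letters and where the motifs of the named factors lie. The 200 bases before the RefSeq start are given 5′ to 3′ on the strand of the gene (build GRCm38, the assembly of mm10), in lower case. Capitals mark matches on either strand to the NRF1 motif with at most 1 mismatch, the ETS motif CCGGAAG or the CRE TGACGTCA. The first stretch of capitals in Cox6a1 and the stretch in Ndufaf4 are NRF1 matches without a mismatch. Cycs and Cyct are the somatic and the testis gene of cytochrome c, Cox8a and Cox8b the ubiquitous and the heart and muscle gene of a small complex IV subunit. Cox6a1 is the ubiquitous gene of another, Ndufb6 encodes an accessory subunit of complex I and Ndufaf4 one of its assembly factors. In this order the regions are chr6:50566570-50566769, chr2:76360454-76360653, chr19:7217617-7217816, chr7:140900447-140900646, chr5:115348959-115349158, chr4:40279422-40279621 (all on the minus strand) and chr4:24897883-24898082 (plus strand).
Cycs: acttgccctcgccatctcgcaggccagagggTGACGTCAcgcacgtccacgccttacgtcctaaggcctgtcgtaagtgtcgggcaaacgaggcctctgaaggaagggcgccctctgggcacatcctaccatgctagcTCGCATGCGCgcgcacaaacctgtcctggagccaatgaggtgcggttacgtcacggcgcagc
Cyct: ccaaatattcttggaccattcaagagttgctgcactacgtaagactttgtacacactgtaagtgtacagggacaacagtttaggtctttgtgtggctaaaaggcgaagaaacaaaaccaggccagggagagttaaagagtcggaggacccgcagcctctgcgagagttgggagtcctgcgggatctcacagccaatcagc
Cox8a: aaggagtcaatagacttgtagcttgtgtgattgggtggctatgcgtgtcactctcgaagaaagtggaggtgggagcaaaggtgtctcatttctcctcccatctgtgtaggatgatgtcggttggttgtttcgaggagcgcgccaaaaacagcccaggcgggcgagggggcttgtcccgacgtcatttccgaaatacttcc
Cox8b: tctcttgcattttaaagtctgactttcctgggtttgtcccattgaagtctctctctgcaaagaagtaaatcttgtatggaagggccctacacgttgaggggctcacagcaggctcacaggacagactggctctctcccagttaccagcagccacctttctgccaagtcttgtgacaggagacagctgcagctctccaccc
Cox6a1: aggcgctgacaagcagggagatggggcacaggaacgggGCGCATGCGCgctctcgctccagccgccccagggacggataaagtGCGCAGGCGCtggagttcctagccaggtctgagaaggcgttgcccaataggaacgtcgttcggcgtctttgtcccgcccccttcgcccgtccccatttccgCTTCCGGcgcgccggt
Ndufb6: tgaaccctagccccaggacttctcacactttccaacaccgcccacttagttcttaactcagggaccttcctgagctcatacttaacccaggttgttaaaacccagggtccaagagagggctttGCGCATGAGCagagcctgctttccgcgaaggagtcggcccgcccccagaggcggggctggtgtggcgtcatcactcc
Ndufaf4: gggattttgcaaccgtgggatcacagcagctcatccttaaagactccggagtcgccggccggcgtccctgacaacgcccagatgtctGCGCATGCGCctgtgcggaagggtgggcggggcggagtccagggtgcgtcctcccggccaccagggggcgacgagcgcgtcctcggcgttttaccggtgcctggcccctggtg

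The Cycs stretch holds 19 CpG dinucleotides and the Cyct stretch 6, the Cox8a stretch 11 and the Cox8b stretch 1. In Cycs the NRF1 match begins 62 bases before the start and the CRE 169 bases before it, and both lie under the highest promoter peak of each replicate. Cox6a1 has NRF1 matches 162 and 117 bases before its start, both under the highest peak in each replicate, and an ETS match 16 bases before it that lies outside that peak. The NRF1 matches of Ndufb6 and Ndufaf4, 77 and 113 bases before the start, also lie under the highest peak of both replicates. Cyct and Cox8b, which had no promoter peak, hold none of the marked motifs in these letters. Nor does Cox8a, but its RefSeq promoter has an ETS match at −5, which crosses the start and is cut off here, and another at 33. A match is a stretch of letters and not a measured binding site.

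Nearly all nuclear oxidative phosphorylation genes had an open promoter. It was open at 90 of the 95 genes (94.7%), against 59.5% of all protein-coding genes. The same number, 90, had a promoter peak in replicate 1 taken alone (61.9% of all genes), in replicate 2 alone (60.8%) and a hotspot in both replicates (59.9%), and no gene had a promoter peak in only 1 replicate. The 5 genes without a peak in either replicate were Cyct, Cox6a2, Cox6b2, Cox8b and Cox8c, and each is a tissue-specific isoform. The 86 genes that are not tissue-specific isoforms were open at 86 promoters. The median gene length was 7.28 kb among the 95 genes and 17.4 kb among all protein-coding genes.

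The share of open genes lay further from that of all genes than the height of the peaks did. Over open promoters, the median score was 138 in replicate 1 and 131 in replicate 2 for the oxidative phosphorylation genes, and 137 and 128 for all protein-coding genes. The median lower percentile was 95.4 for the pathway and 94.8 for all genes. Of the 95 genes, 73 (76.8%) were open with a lower percentile of at least 90, against 41.7% of all protein-coding genes. The widest hotspot within 1 kb of a TSS had a median width of 1308 bp in replicate 1 and 1138 bp in replicate 2. For all open protein-coding genes it was 1355 and 1279 bp. The −log10 false discovery rate of this hotspot stood at the highest deposited value, 100, in both replicates at 87 genes (91.6%), against 55.4% of all protein-coding genes. The shares of 76.8% and 91.6%, and those beside them, count genes whether open or not. Of the 21911 protein-coding genes 13037 were open, 12142 had such a hotspot and 9127 such a percentile, beside 90, 87 and 73 of the 95 genes. Of the open promoters, Cox4i2 and Ndufa4l2 missed the value of 100 in replicate 2, with 5.40 and 4.54. Ndufab1, the mitochondrial acyl carrier protein of complex I, missed it in replicate 1, with 4.33. The values of narrower hotspots at the same promoters were not read.

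**Figure D1:**
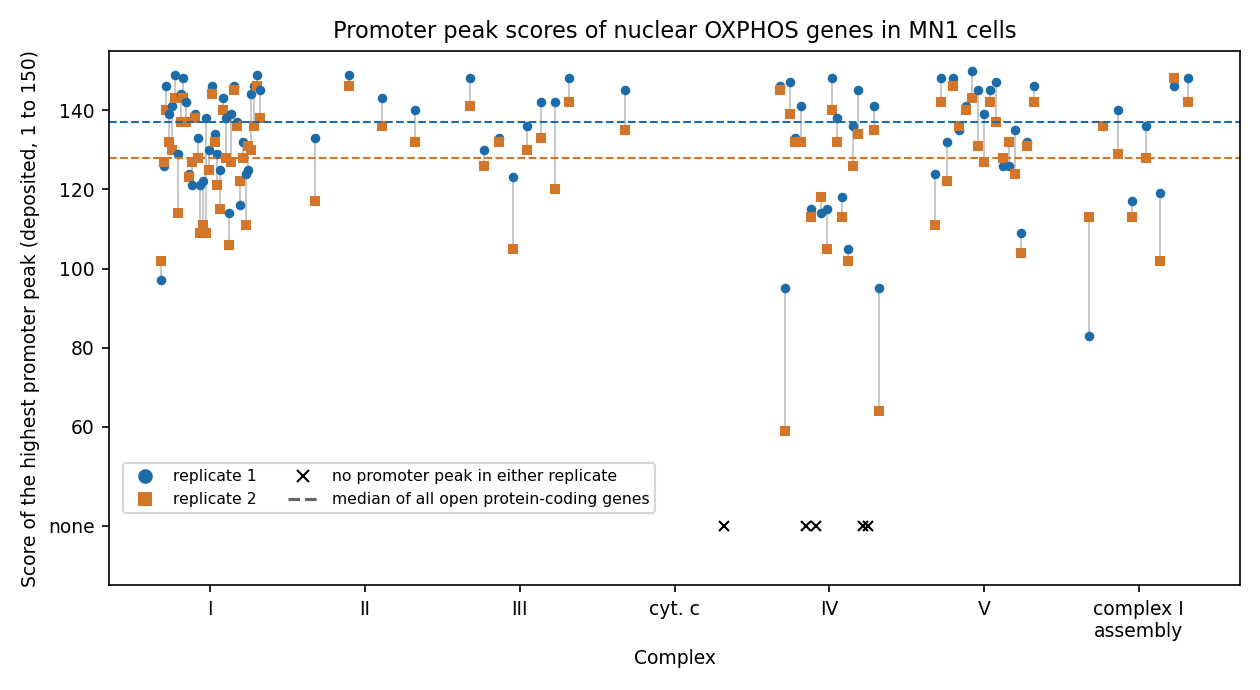
Score of the highest promoter peak (deposited score, 1 to 150) of each of the 95 genes in replicate 1 (circles) and replicate 2 (squares), grouped by complex and joined by a line per gene; crosses at "none" mark the 5 genes without a promoter peak, and dashed lines the medians of all open protein-coding genes, 137 and 128. Genes of complexes I to V lie on both sides of those medians, and all 5 crosses belong to cytochrome c and complex IV.

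Both replicates ranked the genes alike. Spearman's rho between their promoter scores was 0.894 over the 90 open genes, given as a description since the genes share both libraries. The median absolute difference between replicates was 6 score units for these genes and 8 for all open genes, and 69 of the 90 differed by at most 10. Replicate 1 was higher at 78 genes, replicate 2 at 11, and 1 gene had the same score in both. All open protein-coding genes leaned the same way, with replicate 1 higher at 11262, replicate 2 at 1402 and equal scores at 356. Among the 90 genes the widest gap was 36, at Cox4i2. The next widest were at Ndufa4l2 (95 in replicate 1, 64 in replicate 2), Ndufb3, a membrane-arm accessory subunit of complex I (138 in replicate 1, 109 in replicate 2), and at Ndufaf1, an assembly factor of complex I (83 and 113).

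Complex I, the NADH dehydrogenase, was open at 36 of its 36 nuclear subunit genes, with a median lower percentile of 95.0. Here and below, the highest and lowest genes of a complex are ranked by the lower percentile, so single scores can stand in another order. The highest was Ndufv2, an iron-sulfur subunit of the NADH-oxidizing module, which scored 149 in replicate 1 and 146 in replicate 2. The accessory subunits Ndufa2 (149 and 143) and Ndufa6 (148 and 143) came next. The lowest was Ndufa1, an X-linked accessory subunit needed for assembly of the membrane arm, with 97 and 102. Ndufc2 (114 and 106) and Ndufs4 (116 and 122), both accessory subunits, came next by that rank. At every complex I subunit gene except Ndufab1 the widest promoter hotspot stood at the highest value in both replicates, Ndufa1 included.

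The core subunits of complex I carry the electrons from NADH to ubiquinone. Ndufv1, which binds NADH and the flavin, scored 146 in replicate 1 and 136 in replicate 2. Ndufs1, the large iron-sulfur subunit, had 139 and 127. Ndufs7, an iron-sulfur subunit, had 125 and 131, Ndufs3 137 and 136, and Ndufs8 144 and 130. Ndufs7 was the lowest of them in replicate 1 and Ndufs1 in replicate 2, and all of them lay above Ndufa1, Ndufc2 and Ndufs4 in both replicates.

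Some promoter peaks of complex I genes lay away from the annotated start. Ndufa13, an accessory subunit also known as GRIM-19, scored 141 and 130. Its only promoter peak was centred at 928 bp from its single GENCODE TSS in replicate 1 and at 908 bp in replicate 2 (positive downstream). This peak lay near a TSS of Tssk6. The RefSeq promoter of Ndufa13, chr8:69901971-69902270 on the minus strand, lies between the GENCODE TSS of the gene and the peak. Ndufa11, a membrane-arm subunit, scored 146 and 140 with its highest peak at −657 and −677 bp (negative upstream), near a TSS of Vmac.

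Complex II, succinate dehydrogenase, has 4 nuclear subunits and no mitochondrially encoded one, and 4 of the 4 were open with a median lower percentile of 97.3. Sdhb, the iron-sulfur subunit, scored 149 in replicate 1 and 146 in replicate 2. The membrane anchors Sdhc and Sdhd scored 143 and 136, and 140 and 132. Sdha, the flavoprotein that oxidizes succinate, was the lowest of them with 133 and 117.

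Complex III passes electrons from ubiquinol to cytochrome c, and its 8 Uqcr genes were all open, with a median lower percentile of 94.8. Uqcrq (148 and 142) and Uqcr10 (148 and 141), small subunits, were highest, followed by Uqcrfs1, the Rieske iron-sulfur protein (142 and 133). Uqcrc1, a large subunit on the matrix side, was lowest with 123 and 105. The small subunit Uqcr11 had 130 and 126, and Uqcrh, the hinge protein, 142 and 120. Uqcrh nevertheless lay in one of the 3 widest promoter hotspots of the pathway (2816 bp in replicate 1, 2691 bp in replicate 2), whereas the Uqcr11 hotspot was among the narrowest (305 and 794 bp).

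Complex V, the ATP synthase, was open at 17 of 17 genes, with a median lower percentile of 95.4. Atp5d, the δ subunit of the central stalk, scored 148 and 146, and Atp5b, the catalytic β subunit, 148 and 142. Atp5g1 reached the top score of 150 in replicate 1 and 143 in replicate 2. It is 1 of 3 genes for the same mature c subunit of the rotating ring. The other ring genes were also open, Atp5g2 with 145 and 131 and Atp5g3 with 139 and 127. The Atp5g2 promoter lay in the widest hotspot of the pathway (4023 bp in replicate 1, 4004 bp in replicate 2), and Atp5b in the third widest by the smaller of both widths (2611 and 2731 bp). The lowest by rank were Atp5mpl, a small membrane subunit (109 and 104), Atp5a1, the α subunit that forms the catalytic head with Atp5b (124 and 111), and Atp5k, the e subunit (126 and 132), whose lower percentile of 92.0 was shared by Atp5j2, the f subunit (126 and 128). Ranked above these were the γ subunit Atp5c1 of the rotor (132 and 122) and Atp5o, which joins the catalytic head to the outer stalk (132 and 131).

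The 8 complex I assembly factors, which help build the enzyme without staying in it, were open at 8 promoters with a median lower percentile of 95.4. By the lower percentile Ndufaf8 (148 and 142), Ndufaf7, a methyltransferase (146 and 148), and Ndufaf3 (140 and 129) were highest. Ndufaf1 (83 and 113), Ndufaf6 (119 and 102) and Ndufaf4 (117 and 113) were lowest. At Ndufaf1 replicate 1 held peaks of 83 and 71 where replicate 2 held 1 peak of 113.

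Subunits with counterparts in the bacterial enzymes, called core subunits here, number 21 among the 95 genes. Cyc1, the cytochrome c1 of complex III, is also one, but its name lies outside the rule. All 21 had an open promoter with a lower percentile of at least 90, and their median was 96.7. The 64 accessory subunits were open at 60 promoters, with a median lower percentile of 94.3 over these. The 4 without a peak, Cox6a2, Cox6b2, Cox8b and Cox8c, are tissue-specific isoforms of complex IV.

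Complex IV, cytochrome c oxidase, had the lowest share of open promoters among the complexes, 16 of 20, and a median lower percentile of 94.7 over the open ones. Cox4i1 (146 in replicate 1 and 145 in replicate 2), Cox7a2 (148 and 140) and Cox5a (147 and 139) were highest. The subunit genes without an isoform pair were open as well: Cox5b had 133 and 132, Cox7c 136 and 126, and Cox6c, the lowest of them, 114 and 118. The lowest open promoters were Cox7b2, Ndufa4l2 and Cox4i2, again tissue-specific isoforms. Ndufa4 and Ndufa4l2 are counted here because Ndufa4 is now known as a subunit of complex IV despite its name.

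The isoform genes differed by class. All 8 ubiquitous isoform genes were open, with scores from 115 to 148 in replicate 1 and from 113 to 145 in replicate 2 and a median lower percentile of 97.2. Of the 9 tissue-specific isoform genes 4 were open (44.4%, beside 59.5% of all protein-coding genes), with scores from 95 to 115 in replicate 1 and from 59 to 105 in replicate 2 and a median lower percentile of 73.9. The score ranges met only at 115 in replicate 1, where Cox6b1 and Cox7a1 were equal, and did not overlap in replicate 2. None of the 9 reached the lower percentile of 90, against 6 of the 8 ubiquitous isoform genes and 41.7% of all protein-coding genes, each counted whether open or not. Within every set of isoforms the ubiquitous gene had the higher score in both replicates, or its counterparts had no peak.

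Cytochrome c itself showed the division. Cycs, the somatic gene, scored 145 in replicate 1 and 135 in replicate 2. Cyct, the testis gene, had no peak within 1 kb of a TSS, and the nearest shared region lay 1746 bp away. Cox8c and Cox6b2 are also testis isoforms without a promoter peak, and their nearest shared regions lay 13291 and 11123 bp away. Cox8a (145 and 134) and Cox6b1 (115 and 113), the ubiquitous counterparts, were both open. The testis isoform Cox7b2 was the exception among testis isoforms: it scored 105 and 102 at a peak centred at −85 bp in both replicates, against 118 and 113 for Cox7b. The 10 testis and sperm marker genes had no open promoter.

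Of the isoforms made in heart and skeletal muscle, Cox6a2 and Cox8b had no promoter peak, and their nearest shared regions lay 1909 and 2910 bp away. Cox6a1 scored 141 and 132. The third muscle isoform, Cox7a1, had a peak at −34 bp in both replicates with 115 and 105, the highest of the tissue-specific isoforms, against 148 and 140 for Cox7a2. Among the muscle markers 4 of 12 were open, with scores of 41 to 81 in replicate 1 and 39 to 77 in replicate 2, all below Cox7a1. The part of other cells in the Cox7a1 peak was not tested.

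The lung isoform Cox4i2 and Ndufa4l2, which is known to be induced by low oxygen, had the weakest open promoters among the isoform genes. Cox4i2 had its highest peak at 397 bp from a TSS in replicate 1, with 95, and at 377 bp in replicate 2, with 59, against 146 and 145 for Cox4i1. A weaker peak at 76 bp from another start scored 68 and 53. At Ndufa4l2 the highest peak changed place: it lay at 783 bp with 95 in replicate 1, and at −57 bp with 64 in replicate 2. Each replicate also had the other peak, with 89 at −77 bp in replicate 1 and 57 at 803 bp in replicate 2. Ndufa4 had 141 and 135. The promoter hotspots of Cox4i2 (986 bp in replicate 1, 311 bp in replicate 2) and Ndufa4l2 (1501 and 233 bp) were among the narrowest of the pathway by the smaller width.

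**Figure D2:**
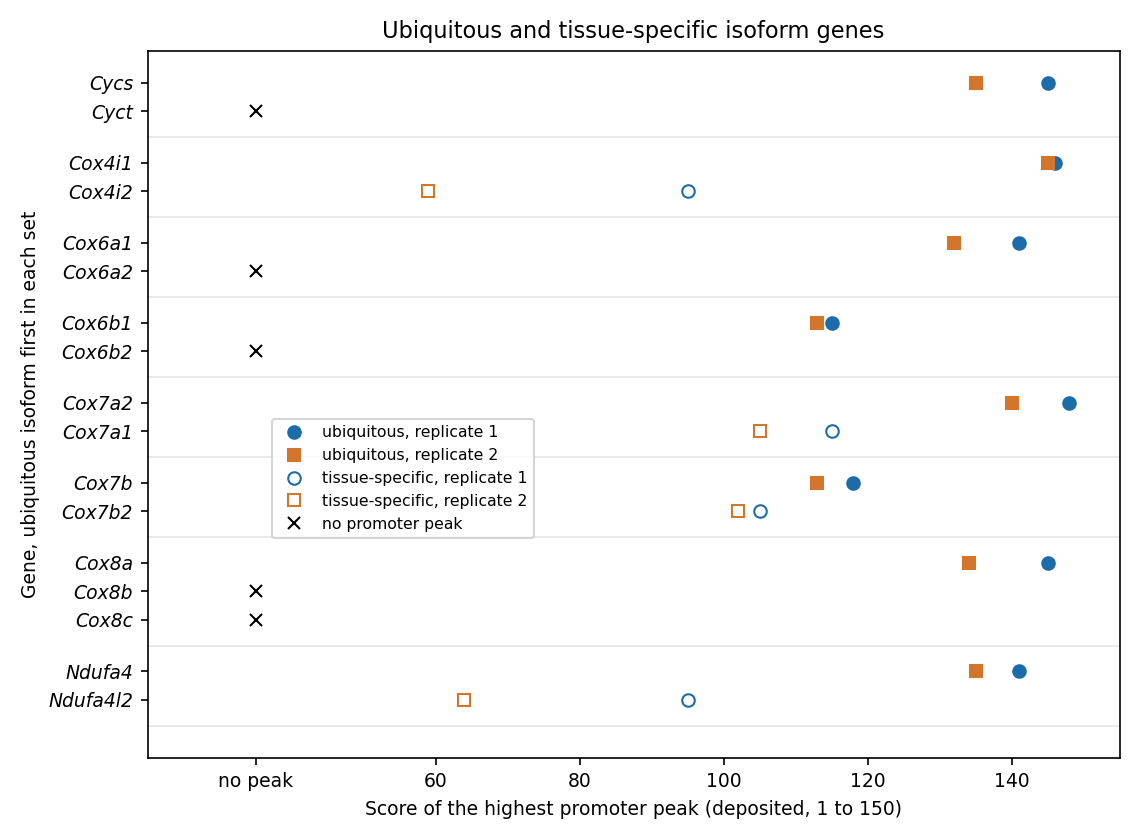
Score of the highest promoter peak (deposited score, 1 to 150) of the 8 ubiquitous isoform genes (filled, upper row of each set) and the 9 tissue-specific ones (open symbols, below), with circles for replicate 1 and squares for replicate 2; crosses mark genes without a promoter peak. The ubiquitous gene lies to the right of its counterparts in every set, and 5 tissue-specific genes have no peak.

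Promoter letters differed in the same direction. The CpG ratio, the observed number of CpG dinucleotides over that expected from the C and G content, was taken over 300 bases at the 5′ end, from 250 before to 50 after it. Its median was 0.838 for the ubiquitous isoforms (0.368 to 1.20) and 0.432 for the tissue-specific ones (0.115 to 0.564). Of the ubiquitous isoforms 7 of 8 reached a ratio of 0.6, and of the tissue-specific ones none. How far CpG content accounts for the division between isoforms was not tested. Over all 95 genes, 66 (69.5%) reached 0.6, against 44.4% of all protein-coding genes, and these 66 were open at 66 promoters, against 87.3% of all genes with such a ratio. Among the 29 genes under 0.6, 24 were open (82.8%), against 37.3% of all genes under 0.6. Those 29 lay mostly near the limit, and by band the shares of all genes differed. From 0.4 to 0.6, 14 of 17 were open, against 65.1% of all genes in that band. From 0.2 to 0.4 it was 8 of 8, against 40.2%, and under 0.2 it was 2 of 4, against 18.8%. The ratio describes the outermost annotated 5′ end, which is not always the start under the peak. Atp5j2, with the lowest ratio of the 95, 0.104 (scores of 126 and 128), and Atp5f1, the b subunit of complex V, with 0.217 (141 and 140), had their highest peaks at starts inside the gene. Cox7a2l, a factor that joins complexes III and IV, had a ratio of 0.179 at its outermost 5′ end and scored 138 and 132, but at a start inside the gene, with no shared region within 1 kb of the outermost one.

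**Figure D3:**
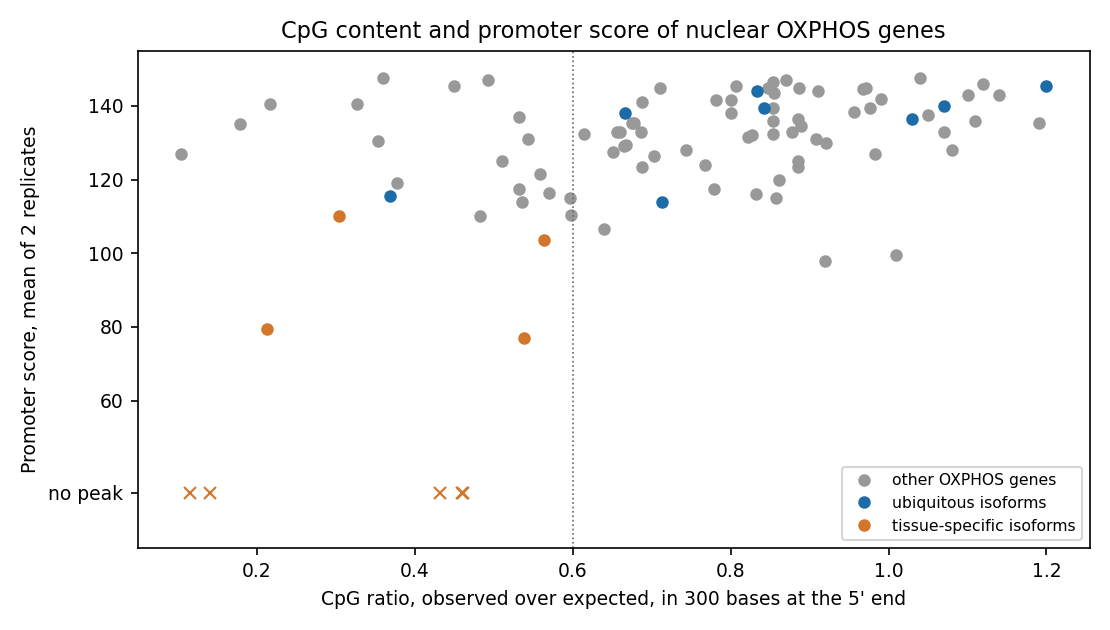
CpG ratio (observed over expected, 300 bases at the 5′ end) against promoter score (mean of 2 replicates) for the 95 genes, with isoform classes in colour, crosses for genes without a peak and a dotted line at 0.6. All genes right of the line have a peak, and the 9 tissue-specific isoforms lie left of it.

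The 3 X-linked genes were all open, against 42.5% of X-linked protein-coding genes, but below the middle of the pathway. Ndufa1 scored 97 in replicate 1 and 102 in replicate 2, Ndufb11 121 and 109, and Cox7b 118 and 113. Their lower percentiles were 80.4, 89.9 and 89.1.

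The peaks sat close to the starts. The centre of the highest promoter peak lay at a median of −26.5 bp from the nearest TSS in replicate 1 and −21.5 bp in replicate 2, against −34.0 and −37.0 bp for all open protein-coding genes. It lay within 150 bp of a TSS at 77 (85.6%) and 80 (88.9%) of the 90 open genes, against 75% and 76.1% of all open genes. The highest peaks of both replicates overlapped at 87 of the 90 (96.7%), against 91.4% of all open genes. At least 2 shared regions stood within 1 kb of a TSS at 59 of the 90 open genes (65.6%), against 79.2% of all open genes. Over all genes, open or not, the order was the other way, 62.1% of the 95 genes against 47.1%.

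**Figure D4:**
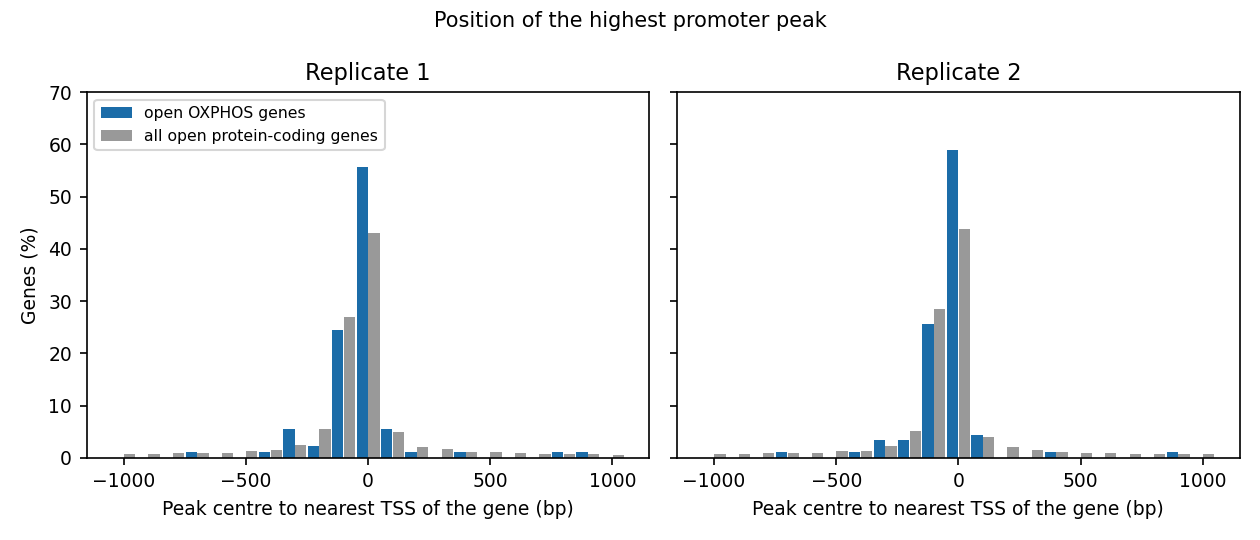
Share of open genes (%) by the distance from the centre of the highest promoter peak to the nearest TSS of the gene (bp, negative upstream), for open oxidative phosphorylation genes (blue, left bar of each bin) and all open protein-coding genes (grey), in replicate 1 (left panel) and replicate 2 (right panel). The blue bars are the taller ones in the bin at the TSS in both replicates.

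Many of these promoters serve a second gene. A protein-coding gene on the other strand began within 1 kb upstream at 30 of the 95 genes (31.6%), against 9.43% of all protein-coding genes. The starts were 3 to 728 bp apart, with a median of 98.5 bp, and 25 of the 30 within 200 bp. Some partners are themselves mitochondrial or belong to translation: Sdhd shares its promoter with Timm8b, a chaperone of the mitochondrial import path, 98 bp away, and Ndufa7 with Rps28, a ribosomal protein, 10 bp away. Cox4i1 and Emc8 stand 101 bp apart, Sdha and Ccdc127 29 bp, and Ndufb11 and Rbm10 3 bp. The 30 genes were open at 30 promoters, with a median of 142 in replicate 1 and 136 in replicate 2. The 65 genes without such a partner were open at 60, with medians of 133 and 128. All protein-coding genes with a partner were open in 94.1% of cases, with medians of 143 and 135, and those without in 55.9%, with 135 and 125. A peak at a shared promoter cannot be assigned to either gene. The highest peak of replicate 1 lay within 1 kb of another coding TSS at 35 of the 90 open genes (38.9%), against 20.3% of all open genes. One case is Atp5j, the F6 subunit of complex V, whose peak (147 and 137) is also that of Gabpa, a subunit of the factor GABP. Leaving out every gene with another coding TSS within 1 kb, 53 of 58 oxidative phosphorylation genes were open, against 54.6% of 18737 genes.

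Away from promoters the group had few open sites of its own. A shared region more than 2.5 kb from any TSS lay inside the gene at 15 of the 95 genes (15.8%), against 38.8% of all protein-coding genes, beside the shorter gene length given above. Ndufaf2 held 12 such regions, Sdhb 8 and Ndufa10, an accessory subunit of complex I, 6. Within 50 kb on either side of the outermost 5′ end the median number of distal shared regions was 4 (0 to 19), against 3 for all genes. The highest number, 19, was at Cox8a.

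Motifs of the factors known for this pathway stood in a larger share of its promoters than of all promoters. They were sought on both strands in the 300 bases at the 5′ end, and no motif searched lies within another. The NRF1 motif with at most 1 mismatch was found at 24 of the 95 genes (25.3%), against 8.25% of all protein-coding genes. Without a mismatch it was found at 5 (5.26%), against 1.22%: Atp5k, Cox6a1, Ndufa11, Ndufaf4 and Ndufaf5. The ETS motif CCGGAAG stood at 18 genes (18.9%), against 10.8%, the YY1 motif AAGATGGCG at 4 (4.21%), against 1.69%, the CRE at 5 (5.26%), against 2.43%, and the ERR motif TCAAGGTCA at 2, Atp5g3 and Sdhd (2.11%), against 0.475%. For the other promoter motifs the shares of the pathway and of all genes were as follows, and for NFY, the E-box and TATA the sign of the difference changed with the window or background used. The NFY motif CCAAT was found at 40 genes (42.1%), against 39.0%, the E-box CACGTG at 8 (8.42%), against 7.74%, the SP/KLF motif GGGGCGGGG at 11 (11.6%), against 14.5%, and the TATA motif TATAAA at 11 (11.6%), against 12.6%.

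The NRF1 motif contains CpG dinucleotides, which these promoters hold more often. Among promoters with a CpG ratio of at least 0.6 it was found at 21 of 66 oxidative phosphorylation genes (31.8%), against 16.1% of all such genes. Within the same promoters the ETS motif stood at 24.2% against 19.4%, a smaller difference than over all promoters. The SP/KLF motif stood there at 12.1% against 26.0%, and in the highest promoter peak of replicate 1 at 6.67% against 15.3%, a larger deficit than over all promoters. Inside the 150 bp of the highest promoter peak of replicate 1 the NRF1 motif was found at 27 of the 90 open genes (30.0%), against 8.74% of all open genes. In the promoters of the RefSeq table, which matched 78 of the 95 genes and 16865 protein-coding genes, it was found at 26 (33.3%), against 9.81%, and more than once at 7 (8.97%), against 1.77%. Sdha had NRF1 matches 98, 55 and 10 bases before its start, all under its highest peak in both replicates. Ndufb4, an accessory subunit of complex I, had them 191, 79 and 22 bases before, of which the last lay outside the peak. Open genes with the motif did not have higher scores than those without: the medians were 133 in replicate 1 and 128 in replicate 2 over 23 genes with it, and 139 and 131 over 67 genes without.

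**Figure D5:**
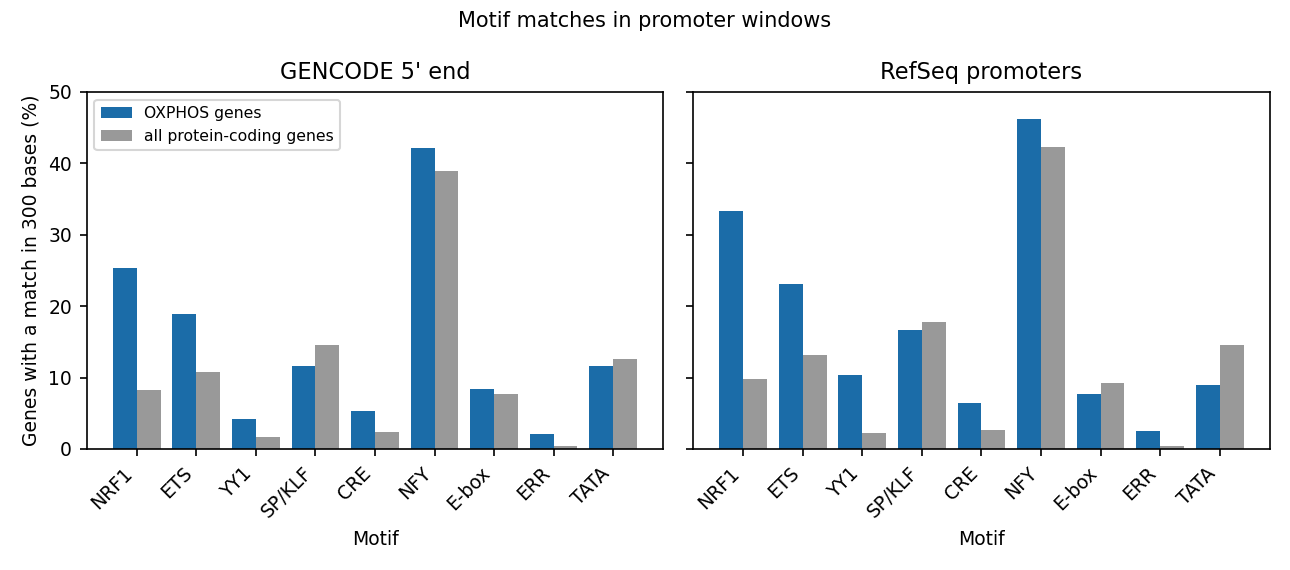
Share of genes (%) with a match to each of 9 motifs in 300 bases, for oxidative phosphorylation genes (blue, left bar) and all protein-coding genes (grey), at the GENCODE 5′ end (left panel) and in RefSeq promoters (right panel). The NRF1 bars are 25.3% and 8.25% in the left panel and 33.3% and 9.81% in the right one.

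The YY1 motif was found in the RefSeq promoters of 8 of 78 oxidative phosphorylation genes. It began at −88 in Atp5j and lay within the first 50 bases after the start in the other 7 (8.97%), against 1.37% of all matched genes. These sequences show its setting, with the motif in capitals, 5′ to 3′ on the strand of the gene, each cut to the motif and up to 8 bases on either side.
Atp5j2: aggacttcAAGATGGCGtcactcgg
Ndufa9: tgtgggagAAGATGGCGgccgccgt
Ndufaf8: cagggcccAAGATGGCGgcgccctc
Ndufc1: tgcggaacAAGATGGCGccgtccgt
Ndufs4: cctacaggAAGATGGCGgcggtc
Ndufs6: tcaccggcAAGATGGCGgcggtgct
Ndufs7: ccgaggccAAGATGGCGgcgctggc

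They lie at chr5:145191502-145191526 (minus strand), chr6:126849099-126849123 (minus), chr11:120098936-120098960 (plus), chr3:51408917-51408941 (minus), chr13:114388045-114388067 (minus), chr13:73328433-73328457 (minus) and chr10:80249465-80249489 (plus) of GRCm38, just after the RefSeq start. All but Atp5j2 are genes of complex I subunits or its assembly factors, which supply 36 and 8 of the 95 genes. Ndufs4, Ndufs6, Ndufa9 and Ndufc1 are accessory subunits, Ndufs7 a core iron-sulfur subunit and Ndufaf8 an assembly factor. The motif began 11 to 36 bases after the start, with a median of 25, and stood on the strand of the gene at 7 of 7, against 87.9% of the 231 genes that hold it there. Its ATG was the annotated start codon at 6 of the 7 (85.7%), all but Ndufaf8, against 58.4% of those 231 genes. The 7 promoters were open, with Ndufaf8 at 148 and 142 and Ndufs4 at 116 and 122 among them. The set depends on the start used. At the GENCODE 5′ end the 4 genes with the motif were Atp5h, Ndufa2, Ndufa9 and Ndufaf8.

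Genes next to the pathway in function had open promoters at a similar share. Of 39 further respiratory chain genes and assembly factors, among them Cyc1, Bcs1l and Surf1, 39 had an open promoter, against 59.5% of all protein-coding genes. Their median lower percentile was 96.2. The highest were Coa6, an assembly factor of complex IV (149 and 147), and Lyrm7, an assembly factor of complex III (149 and 146). Of 15 regulators of mitochondrial biogenesis 13 were open (86.7%, also beside 59.5%), the highest being Sp1 (150 and 150) and Yy1 (147 and 143). A CpG ratio of at least 0.6 was reached by 30 of the 39 genes and 12 of the 15 regulators. Of all genes with such a ratio 87.3% were open. Nrf1 scored 143 and 142, and Tfam, which packages mitochondrial DNA and acts in its transcription, 138 and 130. The 2 without a promoter peak were Ppargc1a and Esrrg, the coactivator and the nuclear receptor known for driving mitochondrial biogenesis in muscle, heart and brown fat. Esrra, the related receptor, scored 147 and 137.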

How the data were processed

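DNase-seq was done on 2 biological replicates of MN1 cells given 10 nM methyltrienolone. The authors made peaks and hotspots for each library by itself, from its filtered mm10 alignment plus another input, per the listing deposited with the library. Aligner and caller: not given in the sources used here. For peaks of 150 bp the authors deposited a score of 1 to 150 in whole numbers. For hotspots they deposited a q-value as −log10 of the false discovery rate, 1.30 or more, with 100 as the highest value, which stands for 46.9% of hotspots in replicate 1 and 44.7% in replicate 2. Neither was normalized between the lists in any stated way, so ranks and percentiles were taken within a list. Score differences between replicates, and the mean score plotted against the CpG ratio, use the deposited values as they stand. A peak list depends on depth, which is unknown, and on the caller's threshold. A promoter listed without a peak may still be accessible, and reads cannot be placed in repeated sequence.

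Entries listed more than once (15 in replicate 1, 26 in replicate 2) were reduced to 1, on 21 chromosomes. Where a peak of replicate 1 and a peak of replicate 2 overlapped by 1 bp or more, they formed a shared region, 127807 in all. Coordinates are 1-based. Gene models are those of GENCODE M21, and promoter sequences and the genome come from RefSeq for GRCm38.p6, with genes matched by symbol or by a synonym that names a single gene. With 1 group, no test was run. The highest 3 and lowest 3 genes by lower percentile in complexes I, III, IV and V and the assembly factors were named. So were all isoform genes, the complex II and c-ring genes, those with the 3 widest and 3 narrowest hotspots, and those without a peak. Ndufa10, Ndufa11, Ndufa13, Ndufab1, Ndufaf2, Ndufb3, Atp5c1, Atp5f1, Atp5o, Atp5j, Cox5b, Cox6c, Cox7c, Ndufs1, Ndufs3, Ndufs7, Ndufs8, Ndufv1, Atp5j2, Cox7a2l, the X-linked genes and those named for a motif or a neighbour were chosen after their values were seen. The members, lists and motifs were chosen with earlier results of these data known. The values of some genes are not reported here. The steps were checked on simulated data. Calculations used Python 3.11.15, numpy 2.4.6, pandas 2.3.3, scipy 1.17.1 and pysam 0.24.0, and matplotlib 3.10.9 drew the figures.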

Additional observations from a re-analysis of the deposited data

Results flagged for a closer look

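The mitochondrial genome, which encodes the other subunits of the same complexes and lies outside the peaks used above, carried 17 peaks in replicate 1 and 17 in replicate 2. They are given here because no comparison above uses them. All 17 peaks had the same position and score in both replicates, and all 17 hotspots the same position and value. On the main chromosomes 1093 peaks had the same position and score in both, 0.576% of replicate 1 and 0.640% of replicate 2. The mitochondrial scores ran from 124 to 150, with 9 at 150. The peaks covered 14.2% and the hotspots 63.4% of the mitochondrial genome, and 6 of its 13 protein-coding genes overlapped a peak. Whether the mitochondrial entries of both lists come from the same reads was not tested.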

How the results depend on the processing

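The number of open oxidative phosphorylation genes was 90, and 90 to 90 with either replicate left out. The numbers for core subunits (21), assembly factors (8), ubiquitous isoforms (8) and tissue-specific isoforms (4) also did not change without either replicate. An open promoter needs peaks of both replicates, so leaving 1 out loosens the call. Core subunits, assembly factors and ubiquitous isoforms were already all open. These unchanged numbers therefore do not measure how firm the calls are. The number of open genes was 89 with a promoter window of 500 bp, which left out Ndufa13, and 89 with the 5′ end alone, which left out Cox7a2l. With a window of 2.5 kb it was 92, with Cox6a2 and Cyct added, so that 6 of the 9 tissue-specific isoforms were open. Without genes that have another coding TSS within 1 kb it was 53 of 58, fewer by construction; this alternative, the CpG background and the RefSeq promoters were chosen after seeing the data. The median lower percentile, 95.4, was 90.7 when only the stronger 50% of peaks were ranked, and 95.9 to 96.5 when a replicate was left out, where a single percentile replaces the lower of both. Differences in motif share between the oxidative phosphorylation genes and all genes kept their direction for the NRF1, ETS, YY1, CRE, ERR and SP/KLF motifs. They turned for NFY in the peak (−3.00 percentage points), for the E-box in the peak (−4.64), in RefSeq promoters (−1.49) and among CpG-rich promoters (−2.51), and for TATA in the peak (1.40) and among CpG-rich promoters (0.18); the cause was not tested. No paired analysis was possible because there is 1 group. A promoter with no peak may have one below the authors' threshold, and 2 replicates give no more than a range.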
